A study of Rattus norvegicus with 65 samples.

Results

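The genes described here encode 10 proteins of autophagy, the route by which a cell encloses part of its own content in a membrane and delivers it to the lysosome. They are Ulk1, Becn1, Wipi1, Atg5, Atg7, Map1lc3a, Map1lc3b, Gabarapl1, Sqstm1 and Tfeb. They were chosen by name, as the listed rat symbols with an entry in the deposited gene counts, and all 10 had an entry among the 14554 genes of the table. The libraries were made from polyA RNA of primary cardiomyocytes of neonatal rats, cultured as a mixed preparation pooled from several litters and serum starved before the drugs were added. The 10 groups were 5-fluorouracil (5FU, 10 mM) with its control DMSO1 (1% DMSO), and acetaminophen (Ace, 2.5 mM) and doxorubicin (Dox, 1.25 µM) with their common control DMSO2 (0.25% DMSO), each after 6 or 24 h. At 6 h there were 6 libraries of 5FU, 6 of DMSO1, 6 of Ace, 7 of Dox and 7 of DMSO2, and at 24 h 6 of 5FU, 6 of DMSO1, 7 of Ace, 7 of Dox and 7 of DMSO2, 65 in all. The study asked how the cells respond to the 3 drugs. All groups, the controls included, shared the cell preparation, the serum starvation and DMSO as the vehicle. Ace and Dox were compared with the same control libraries, so their comparisons are not independent of each other.

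Autophagy starts when the ULK1 kinase complex and the Beclin 1 lipid kinase complex mark a membrane with a phosphoinositide that WIPI proteins bind. A conjugation machinery that includes ATG7 and ATG5 then attaches the small ATG8 proteins, the LC3 and GABARAP families, to that membrane, where receptors such as p62 bring the cargo, and the transcription factor TFEB drives many genes of the route and of the lysosome. In heart muscle, whose cells are rarely replaced, autophagy is known for removing damaged mitochondria and protein aggregates. The values below are levels of messenger RNA, and no flux through the route and no protein was measured.

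Library totals ran from 14332827 to 25738297 counts, with group medians at 6 h of 20909342.5 in DMSO1, 20797699.5 in 5FU, 19219714 in DMSO2, 19005814 in Ace and 18998231 in Dox. At 24 h they were 17718893 in DMSO1, 18783611.5 in 5FU, 18506851 in DMSO2, 20473400 in Ace and 16492469 in Dox. The member counts ran from 144, for Atg7, to 15820, for Sqstm1, in a library. Levels are given as CPM, counts scaled to a total of 1e6, on totals scaled by the trimmed mean of M-values (TMM), as the lowest, the median and the highest library of a group. They are not divided by transcript length, so levels are compared between groups and never between genes. The libraries are parallel cultures of 1 mixed cell preparation, so the p-values measure the spread between cultures and not between animals. Fold changes are on the log2 scale with their standard error, and a gene was called at a false discovery rate (FDR) under 0.01 over all 14554 genes in edgeR. The words rose and fell are used for called genes, and where results are given without several libraries, each was left out alone.

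Before the results, 3 libraries stood apart from their own group over all genes. Libraries are numbered by the order of their columns within a group, as the column names carry no replicate number, so they cannot be tied to the numbers in the sample titles. The median absolute distance from the group was 0.172 on the log2 scale for library 7 of the 24 h Dox group, 0.165 for library 1 of the 6 h 5FU group and 0.161 for library 1 of the 24 h DMSO1 group. The next library of each group was at 0.115, 0.114 and 0.0898. Library 7 of the 24 h Dox group also had the highest total, 25738297. Results that change without these libraries are given both ways. In a comparison that holds none of them, leaving them out acts only through the model and scaling shared by all groups.

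Markers of the labelled cell type were present in every group. Of 6 cardiomyocyte markers 5 had an entry (Ttn had none), and none of them was at 0 in any group. Their summed level in the 24 h DMSO2 libraries was 25100, 29900 and 33430 CPM (lowest, median and highest), with Myh6 the most abundant, and in the 24 h Dox libraries it was 7826, 8211 and 9519 CPM, with Tnnt2 the most abundant. All 5 fell in Dox at 24 h, and in 5FU at 24 h 3 fell and 1 rose, with sums of 16680, 17320 and 19200 CPM against 22580, 25390 and 28280 CPM in DMSO1. The median sums at 6 h were 27330 CPM in DMSO1, 28640 CPM in 5FU, 26420 CPM in DMSO2, 29550 CPM in Ace and 24580 CPM in Dox, and in Ace at 24 h 29080 CPM. In Ace at 24 h 2 of the 5 fell, Actn2 at -0.25 (FDR 0.00054) and Ryr2 at -0.36 (FDR 0.00522).

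Other cell types left their markers in the same libraries. All 5 fibroblast markers fell at 24 h in each drug, and their median sum, led by Col1a1, was 10320 CPM in DMSO1, 4326 CPM in 5FU, 9817 CPM in DMSO2, 5619 CPM in Ace and 2459 CPM in Dox. Of 5 endothelial markers 4 had an entry (Pecam1 had none), and at 24 h 3 of 4 fell in 5FU, 2 in Ace and 4 in Dox, where the median sum was 29.4 CPM, led by Kdr, against 248 CPM in DMSO2, led by Cdh5. The 5 macrophage markers, led by Csf1r, had a median sum of 55.4 CPM in DMSO2, 41.6 CPM in Ace and 24.8 CPM in Dox at 24 h, with 4 of 5 lower in Ace and 5 of 5 in Dox. In 5FU at 24 h 2 of the 5 macrophage markers fell, with a median sum of 47.1 CPM against 53.6 CPM in DMSO1. Of the 5 smooth muscle and pericyte markers, 2 rose and 3 fell in 5FU, 4 fell in Ace, and 2 rose and 2 fell in Dox at 24 h. Their median sums were 548 CPM in DMSO1, 387 CPM in 5FU, 639.7 CPM in DMSO2, 370.5 CPM in Ace and 764 CPM in Dox, with Acta2 the most abundant in DMSO2 and Dox, Pdgfrb in DMSO1 and Ace and Cnn1 in 5FU. The Dox sums ran from 264.7 to 855.6 CPM, around the DMSO2 range of 611.5 to 676.5 CPM.

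At 6 h 3 of 5 fibroblast, 1 of 4 endothelial and 1 of 5 macrophage markers fell in Ace. In 5FU 1 of 5 fibroblast and 1 of 4 endothelial markers fell, 1 macrophage marker rose and 2 fell, 1 smooth muscle and pericyte marker rose and 1 fell, and 1 cardiomyocyte marker rose. In Dox at 6 h 8 of the 10 members and 64.2% of all genes were called. In that comparison 4 of 4 endothelial markers fell, with a median sum of 78.2 CPM, led by Tie1, against 189.6 CPM in DMSO2. There 3 of 5 fibroblast markers fell, 3 of 5 smooth muscle and pericyte markers rose and 1 fell, 2 macrophage markers rose and 1 fell, and 2 cardiomyocyte markers rose and 2 fell. The smooth muscle and pericyte sum, led by Acta2, went from a median of 757 CPM in DMSO2 (706.2 to 904.2) to 1975 CPM in Dox (713.9 to 2234), and the ranges overlapped. None of these markers was at 0 in any group. These lists moved with the drug comparisons, and their part in the result was not tested. At 24 h 7 members were called in 5FU, 4 in Ace and 9 in Dox, where 55.8%, 37.2% and 81.4% of all genes were called. In bulk samples, fewer cells of a type and less RNA per cell cannot be told apart.

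In each drug comparison some of the 10 members rose and others fell. In 5FU at 6 h 4 members rose and 1 fell, where 47.9% of all genes were called, 23.4% higher and 24.5% lower. Ace at 6 h gave 3 up and 2 down, with 31.7% of all genes called, 16.5% higher and 15.2% lower. Dox at 6 h gave 5 up and 3 down, with 64.2% of all genes called, 31.5% higher and 32.7% lower. The share of members called was thus 50% in 5FU, 50% in Ace and 80% in Dox at 6 h.

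After 24 h the counts were higher in 5FU and Dox. In 5FU 5 members rose and 2 fell, with 55.8% of all genes called, 28% higher and 27.8% lower. Ace gave 3 up and 1 down, with 37.2% of all genes called, 18.2% higher and 19.1% lower. Dox gave 5 up and 4 down, with 81.4% of all genes called, 40.4% higher and 41% lower. The sizes were modest. The median absolute log2 fold change of the members and of all genes was 0.21 and 0.29 in 5FU at 6 h, 0.12 and 0.19 in Ace at 6 h, and 0.25 and 0.39 in Dox at 6 h. At 24 h it was 0.29 and 0.35 in 5FU, 0.15 and 0.20 in Ace, and 0.38 and 0.77 in Dox. In each of the 6 drug comparisons the members' median size was below that of all genes. All genes here include ones with low counts, as 11908 of 14554 had at least 10 counts in every library, while no member was under 144. The shares and sizes of all genes are thus not matched to the members for count level. In Dox at 24 h, 63.4% of all genes had a larger absolute fold change than the member that moved most, Tfeb.

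The signed medians of the members were slightly above those of all genes. They were 0.13, 0.044 and 0.14 in 5FU, Ace and Dox at 6 h, where all genes had -0.0016, 0.0023 and 0.0030. At 24 h they were 0.17, 0.11 and 0.15, where all genes had -0.0094, -0.0008 and 0.0028. The split of called genes depended on the scaling in some comparisons. In a fit by library size only, in place of TMM, the share of called genes that were higher went from 48.9% to 36.8% in 5FU at 6 h, from 49.1% to 33.8% in Dox at 6 h and from 48.8% to 61.4% in Ace at 24 h. The members were then 3 higher and 1 lower in 5FU at 6 h, 2 higher and 3 lower in Dox at 6 h, and unchanged in number in Ace at 24 h. That scaling moved the median of all genes by -0.15 in Dox at 6 h, and 3 of the 5 higher calls there were lost. They were Wipi1 (0.046), Map1lc3b (0.032) and Gabarapl1 (0.12), all still above the median of all genes, which was then -0.15.

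**Figure D1:**
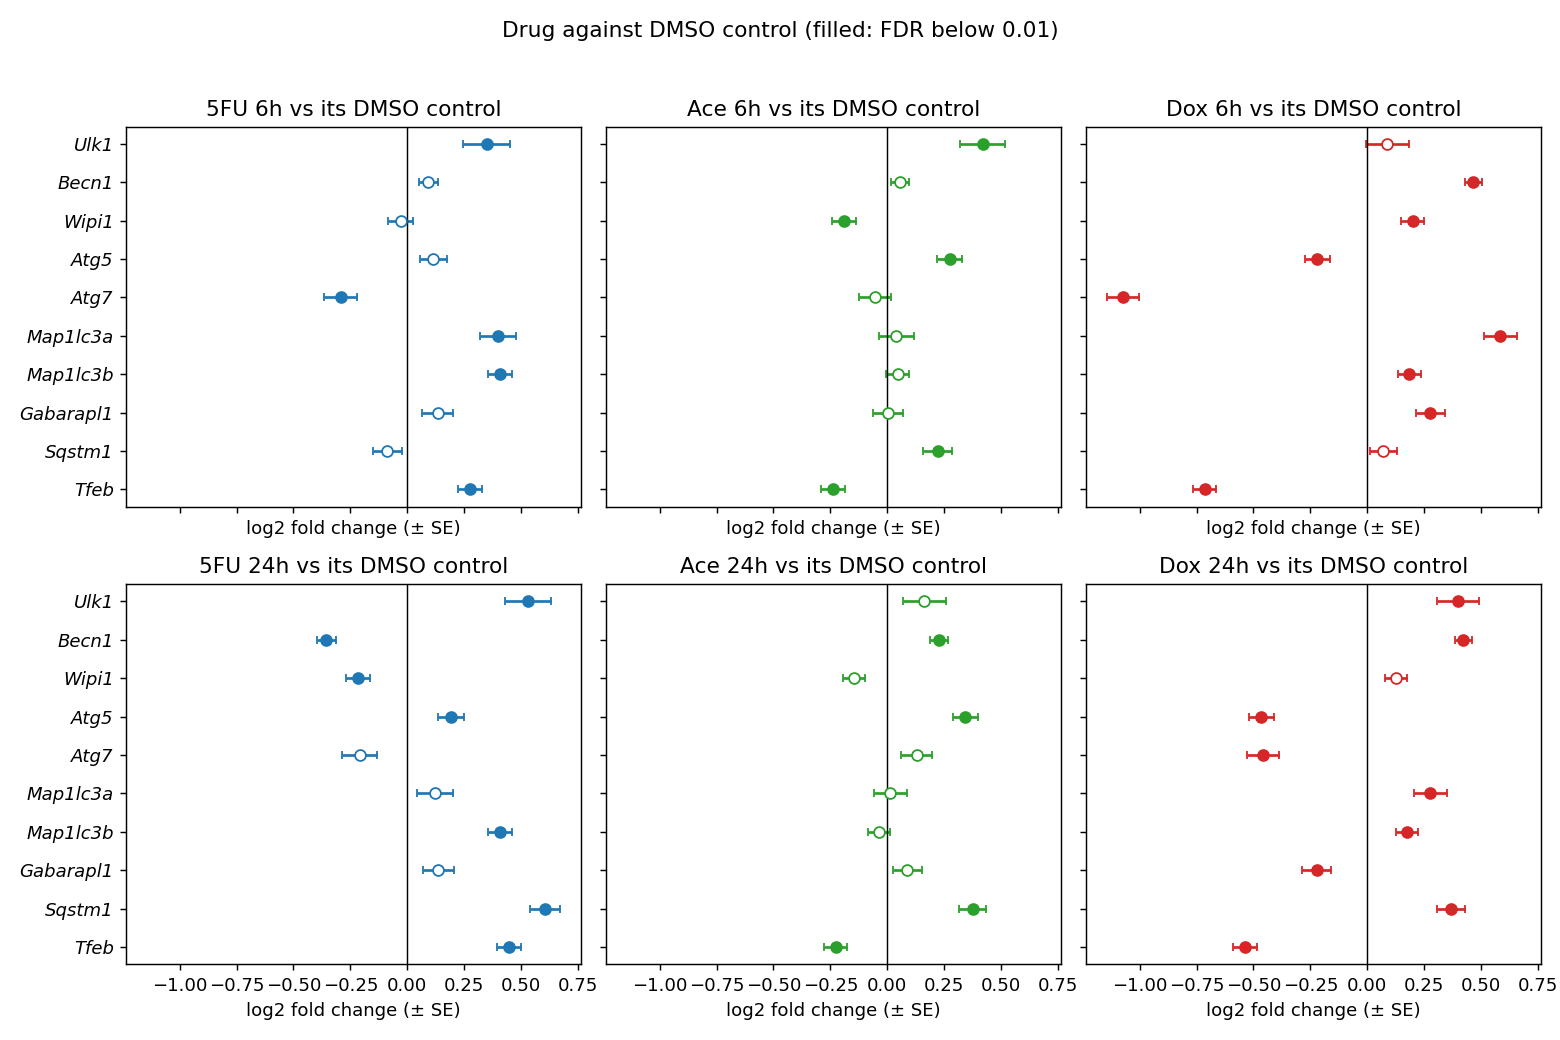
Log2 fold change of each of the 10 members (points, with bars of 1 standard error) in the 6 comparisons of a drug with its DMSO control, filled where the FDR was under 0.01. Tfeb was at 0.45 in 5FU and -0.54 in Dox at 24 h, and Atg7 at -1.07 in Dox at 6 h.

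Every member differed between 6 and 24 h in the controls. From 6 to 24 h in the controls, DMSO1 and DMSO2 averaged, 5 members rose and 5 fell, with 64.6% of all genes called, 32.7% higher and 31.9% lower, and the median absolute log2 fold change was 0.35 for the members and 0.30 for all genes. Ulk1, Wipi1, Map1lc3a, Map1lc3b and Gabarapl1 rose with time, and Becn1, Atg5, Atg7, Sqstm1 and Tfeb fell. Over the same time 5 of 5 fibroblast, 3 of 4 endothelial and 5 of 5 macrophage markers rose, and 1 of 5 cardiomyocyte markers rose and 1 fell. Of the 5 smooth muscle and pericyte markers 3 rose and 2 fell. The part of these markers in the change of the members was not tested.

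The DMSO level mattered less. At 6 h 2 members were lower in 1% than in 0.25% DMSO, Map1lc3b and Ulk1, with 16.5% of all genes called, 9.87% higher and 6.6% lower. With library size only the share of higher calls went from 59.9% to 29.6%, and 3 members were lower, Wipi1 in addition (-0.25, FDR 0.000571). The count of members went to 1 without library 1, 2 or 6 of the 6 h DMSO1 group or library 4, 5 or 6 of the 6 h DMSO2 group, as the call of Ulk1 was lost. At 24 h edgeR called 0 members, 4 had an unadjusted p under 0.05, and DESeq2 also called 0, where 0.433% of all genes were called, 0.137% higher and 0.295% lower. At 6 h 4 of 5 fibroblast and 4 of 4 endothelial markers were lower in 1% DMSO, with median sums of 6697 against 9126 CPM and 129 against 189.6 CPM. Of the 5 smooth muscle and pericyte markers 2 were higher and 2 lower, and 1 cardiomyocyte marker was higher. The smooth muscle and pericyte sum, with Acta2 the most abundant, ran from 744.5 to 3040 CPM (median 1806) in 1% DMSO. In 0.25% DMSO it ran from 706.2 to 904.2 CPM (median 757), so the ranges overlapped. The part of these markers in the result was not tested. At 24 h the split of called genes went from 31.7% to 80.7% higher with library size only.

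Ulk1, the kinase that starts autophagosome formation, had higher levels at 24 than at 6 h in every treatment, and rose in 5FU at both times, in Ace at 6 h and in Dox at 24 h. At 6 h its level was 57.4, 80.5 and 94.7 CPM in DMSO1 and 86.98, 97.7 and 113 CPM in 5FU, as lowest, median and highest library. The DMSO2 libraries were at 73.5, 102 and 112 CPM, Ace at 103, 134 and 152 CPM and Dox at 87.6, 104 and 124 CPM. All of these 6 h groups overlapped their controls, and Ace held the highest median. At 24 h Ulk1 was at 152, 194 and 197 CPM in DMSO1 and 250.4, 263 and 278 CPM in 5FU. The other 24 h groups were at 139.5, 166.7 and 191.1 CPM in DMSO2, 161, 182 and 211 CPM in Ace and 191.2, 216.6 and 269.4 CPM in Dox. Every 5FU library lay above every DMSO1 library at 24 h, and every Dox library above every DMSO2 library, while Ace overlapped its control.

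In 5FU the log2 fold change of Ulk1 was 0.35 ± 0.10, FDR 0.00296 at 6 h, with 6 of 6 libraries above the control median, and 0.53 ± 0.10, FDR 6.46e-06 at 24 h, with 6 of 6 above. Ace gave 0.42 ± 0.099, FDR 0.00037 at 6 h, 6 of 6 above, and 0.16 ± 0.094, FDR 0.151 at 24 h, where it was not called. Dox gave 0.090 ± 0.095, FDR 0.401 at 6 h, not called, and 0.40 ± 0.094, FDR 0.000105 at 24 h, 7 of 7 above. Between the controls at 6 h Ulk1 was lower in 1% than in 0.25% DMSO, at -0.35 ± 0.1, FDR 0.00627, so the 5FU comparison at 6 h started from the lower control. From 6 to 24 h the controls rose by 0.99 ± 0.07, FDR 8.72e-20, a fold of 1.99, and the 24 h range was above the 6 h range in DMSO1, DMSO2, 5FU, Ace and Dox alike. In the order of medians the 5 groups at 24 h came first, 5FU, Dox, DMSO1, Ace and DMSO2, and then Ace, Dox, DMSO2, 5FU and DMSO1 at 6 h, and each neighbour overlapped the next. The 5FU call at 6 h was lost without library 3 of the 6 h 5FU group (0.31, FDR 0.0123) and libraries 2 and 6 of the 6 h DMSO1 group (0.28 and 0.27, FDR 0.0194 and 0.0212), and with library size only (0.27, FDR 0.0351) or the compared groups alone (0.35, FDR 0.0291). The difference between the controls at 6 h was no longer called without libraries 1, 2 and 6 of the 6 h DMSO1 group (-0.35, -0.28 and -0.27, FDR 0.0138, 0.041 and 0.0449) and libraries 2, 4, 5 and 6 of the 6 h DMSO2 group (-0.34, -0.32, -0.31 and -0.33, FDR 0.0119, 0.0169, 0.0199 and 0.0148), nor in a fit of the compared groups alone (-0.35, FDR 0.0483).

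Becn1, whose protein Beclin 1 is a subunit of the lipid kinase complex of autophagy, moved in opposite directions in Dox and 5FU at 24 h. At 6 h it was at 107, 112 and 122 CPM in DMSO1 and 113, 121 and 129 CPM in 5FU. With 0.25% DMSO it was at 103, 106 and 111 CPM in DMSO2, 106, 110.4 and 119 CPM in Ace and 144, 145 and 153 CPM in Dox. The 7 Dox libraries at 6 h lay above all other libraries of the study. At 24 h DMSO1 was at 85.2, 92.8 and 108 CPM and 5FU at 70.6, 73.97 and 77.8 CPM. At that time DMSO2 was at 84.9, 88.3 and 94.4 CPM, Ace at 96.4, 105 and 109.6 CPM and Dox at 108, 119.8 and 126 CPM. Thus the 24 h 5FU libraries were all below their control and the lowest of the study, and the Ace and Dox libraries were all above theirs.

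Becn1 rose in Dox by 0.47 ± 0.038, FDR 2.73e-17 at 6 h and 0.42 ± 0.038, FDR 6.56e-16 at 24 h, in 7 of 7 and 7 of 7 libraries. Ace at 24 h gave a rise of 0.23 ± 0.038, FDR 8.78e-07, in 7 of 7 libraries, and at 6 h 0.055 ± 0.039, FDR 0.274, not called. In 5FU Becn1 was at 0.093 ± 0.041, FDR 0.0446 at 6 h, not called, and at 24 h at -0.36 ± 0.042, FDR 3.38e-11, lower in 6 of 6 libraries. The controls fell from 6 to 24 h, at -0.25 ± 0.028, FDR 2.91e-12. In the order of medians Dox at 6 h stood above all and 5FU at 24 h below all with no overlap, and the 8 groups between them overlapped their neighbours: 5FU at 6 h, Dox at 24 h, DMSO1, Ace and DMSO2 at 6 h, and Ace, DMSO1 and DMSO2 at 24 h. The 24 h Dox group held library 7, which stands apart, as its lowest library, at 108 CPM.

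Wipi1, a protein that binds the phosphoinositide made by the Beclin 1 complex, differed most by culture time, with smaller drug changes in both directions. Its 6 h libraries ran from 37.1 to 44.3 CPM in DMSO1 (median 41.98) and 38.5 to 44.6 CPM in 5FU (median 40.6). In DMSO2 they ran from 42.9 to 50.7 CPM (median 46.8), in Ace from 38.5 to 46.7 CPM (median 39.96) and in Dox from 47.5 to 64.1 CPM (median 51.95). The drug groups at 6 h overlapped their controls, with Dox the highest and Ace the lowest by median. At 24 h the ranges were 69.4 to 79.2 CPM in DMSO1 (median 74.7) and 62.3 to 66.3 CPM in 5FU (median 64.7). For DMSO2 the range was 74.4 to 84.9 CPM (median 81.1), for Ace 69.6 to 78.5 CPM (median 72.5) and for Dox 78.2 to 96.2 CPM (median 88.4). For each treatment every 24 h library lay above every 6 h library of the same treatment, and 5FU at 24 h lay below its control.

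From 6 to 24 h Wipi1 rose in the controls by 0.82 ± 0.036, FDR 1.58e-29, a fold of 1.76. It fell in 5FU at 24 h, at -0.22 ± 0.052, FDR 0.000275, in 6 of 6 libraries, and was at -0.029 ± 0.054, FDR 0.666 at 6 h, not called. It fell in Ace at 6 h, at -0.19 ± 0.052, FDR 0.00227, in 6 of 6 libraries, and rose in Dox at 6 h, at 0.20 ± 0.05, FDR 0.000276, in 7 of 7 libraries. At 24 h Ace was at -0.15 ± 0.048, FDR 0.0101 and Dox at 0.13 ± 0.048, FDR 0.0125, both just short of the threshold. In the order of medians Dox, DMSO2, DMSO1 and Ace at 24 h overlapped in turn, 5FU at 24 h stood below Ace with no overlap, and Dox, DMSO2, DMSO1, 5FU and Ace at 6 h followed, each overlapping the next. The Ace call at 6 h was lost without libraries 3 and 6 of the 6 h Ace group (-0.17 and -0.16, FDR 0.0121 and 0.0148) and library 6 of the 6 h DMSO2 group (-0.16, FDR 0.0142). The Dox call at 6 h was lost with library size only (0.046, FDR 0.448). The Ace difference at 24 h was called in DESeq2 (-0.15, FDR 0.0057), with DESeq2 size factors (-0.15, FDR 0.00804), with the compared groups alone (-0.14, FDR 0.00262), without the 3 libraries that stand apart (-0.14, FDR 0.00994), and without libraries 4 and 5 of the 24 h Ace group (-0.16 and -0.16, FDR 0.00792 and 0.00828) and library 7 of the 24 h DMSO2 group (-0.16, FDR 0.00498), but with library size only it was -0.088 (FDR 0.166). The Dox difference at 24 h was called in DESeq2 (0.17, FDR 0.000558), with DESeq2 size factors (0.17, FDR 0.00104), with library size only (0.17, FDR 0.00205) and after the filter of edgeR (0.16, FDR 0.00239). It was also called without libraries 2 and 4 of the 24 h DMSO2 group (0.14 and 0.14, FDR 0.00966 and 0.00913) and libraries 2, 3, 4, 5 and 6 of the 24 h Dox group (0.14, 0.18, 0.16, 0.14 and 0.18, FDR 0.00789, 0.00102, 0.004, 0.00747 and 0.000481), but without the 3 libraries that stand apart it was 0.11 (FDR 0.0448). Between the controls at 6 h Wipi1 was at -0.17 ± 0.052, FDR 0.0124, not called, and it was called in DESeq2 (-0.17, FDR 0.00768), with DESeq2 size factors (-0.17, FDR 0.00948), with library size only (-0.25, FDR 0.000571) and without library 3 of the 6 h DMSO1 group (-0.18, FDR 0.00804) and libraries 2 and 3 of the 6 h DMSO2 group (-0.18 and -0.18, FDR 0.0099 and 0.00661).

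Atg5, which joins ATG12 in the conjugate that helps load ATG8 proteins on the membrane, fell in Dox and rose in Ace at both times. At 6 h it was at 29.3, 31.4 and 33.6 CPM in DMSO1 and 31.1, 33.2 and 40.1 CPM in 5FU. With the other control it was at 25.96, 31.6 and 34.1 CPM in DMSO2, 34.05, 37.01 and 38.9 CPM in Ace and 24.1, 25.3 and 30.03 CPM in Dox. All 3 drug groups overlapped their controls at 6 h, and the Ace and Dox ranges did not meet. At 24 h Atg5 was at 23.96, 26.2 and 26.3 CPM in DMSO1 and 27.3, 29.2 and 31.1 CPM in 5FU. The DMSO2 libraries were then at 21.4, 23.2 and 25.2 CPM, Ace at 27.8, 29.4 and 30.7 CPM and Dox at 13.97, 16.6 and 19.8 CPM. By 24 h no drug group overlapped its control, with 5FU and Ace above and Dox below.

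Atg5 fell in Dox at -0.22 ± 0.054, FDR 0.000294 at 6 h and -0.46 ± 0.057, FDR 3.58e-11 at 24 h, in 7 of 7 and 7 of 7 libraries, and with library size only the 6 h value was -0.37. It rose in Ace by 0.28 ± 0.055, FDR 3.82e-05 and 0.34 ± 0.055, FDR 3.16e-07, in 6 of 6 and 7 of 7 libraries. In 5FU it was at 0.12 ± 0.058, FDR 0.08 at 6 h, not called, and rose by 0.19 ± 0.059, FDR 0.00346 at 24 h, in 6 of 6 libraries. The controls fell from 6 to 24 h, at -0.35 ± 0.04, FDR 1.19e-11. In the order of medians Ace, 5FU, DMSO2 and DMSO1 at 6 h and Ace and 5FU at 24 h overlapped in turn. DMSO1 at 24 h came next, below 5FU at 24 h with no overlap, then Dox at 6 h and DMSO2 at 24 h, and Dox at 24 h stood below all others.

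Atg7, the enzyme that activates ATG8 proteins and ATG12 for conjugation, had the largest log2 fold change of any member, in Dox at 6 h. Atg7 was at 6 h at 16.2, 18.1 and 22.4 CPM in DMSO1 and 13.6, 15.1 and 17.1 CPM in 5FU. Its level was 17.1, 20.2 and 21.4 CPM in DMSO2, 17.6, 18.9 and 20.1 CPM in Ace and 8.31, 9.33 and 10.1 CPM in Dox. The Dox libraries lay far below their control, and 5FU and Ace overlapped theirs. At 24 h the DMSO1 libraries were at 11.96, 13.2 and 15.4 CPM and 5FU at 9.95, 12.03 and 12.8 CPM. At the same time DMSO2 was at 11.3, 12.9 and 13.6 CPM, Ace at 13.1, 14.2 and 14.8 CPM and Dox at 8.03, 9.53 and 10.4 CPM. The Dox level was much the same at both times, and by 24 h the controls had come down towards it, though the ranges of Dox and DMSO2 still did not meet.

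In Dox Atg7 fell at -1.07 ± 0.07, FDR 1.69e-21 at 6 h, a fold of 0.47, and at -0.46 ± 0.071, FDR 3.68e-08 at 24 h, in 7 of 7 and 7 of 7 libraries. It also fell in 5FU at 6 h, at -0.29 ± 0.072, FDR 0.000449, in 6 of 6 libraries, a call lost when the compared groups were fitted alone (-0.29, FDR 0.0151). In 5FU at 24 h it was at -0.21 ± 0.075, FDR 0.0128, not called, and it was called without the 3 libraries that stand apart (-0.24, FDR 0.00555), or without library 1 of the 24 h 5FU group (-0.25, FDR 0.00511) and library 1 of the 24 h DMSO1 group (-0.23, FDR 0.00916). Ace was at -0.053 ± 0.069, FDR 0.571 at 6 h and 0.13 ± 0.069, FDR 0.112 at 24 h, called at neither time. From 6 to 24 h the controls fell, at -0.54 ± 0.05, FDR 4.48e-15. The order of medians ran DMSO2, Ace, DMSO1 and 5FU at 6 h, Ace, DMSO1, DMSO2 and 5FU at 24 h, and Dox at 24 and 6 h, and each group overlapped the next.

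Map1lc3a encodes LC3A, an ATG8 protein, and rose in Dox at both times and in 5FU at 6 h. Levels at 6 h were 153, 173 and 188 CPM in DMSO1 and 206, 220 and 251 CPM in 5FU. The DMSO2, Ace and Dox libraries ran from 142 to 208 CPM (median 189.6), 168 to 199.7 CPM (median 186) and 220.2 to 294 CPM (median 274). All 5FU and all Dox libraries at 6 h lay above their controls. At 24 h the ranges were 195 to 256 CPM in DMSO1 (median 220) and 216 to 276 CPM in 5FU (median 239.6). They were 174 to 230.1 CPM in DMSO2 (median 211), 191 to 235 CPM in Ace (median 209.7) and 229.6 to 270.3 CPM in Dox (median 262). Every 24 h drug group overlapped its control. Map1lc3a rose in Dox by 0.58 ± 0.073, FDR 1.65e-10 at 6 h and 0.28 ± 0.073, FDR 0.000436 at 24 h, and in 5FU by 0.40 ± 0.079, FDR 1.48e-05 at 6 h, in 7 of 7, 7 of 7 and 6 of 6 libraries. In 5FU at 24 h it was at 0.12 and in Ace at 0.041 and 0.013, none called (FDR 0.168, 0.704 and 0.899). With time the controls rose by 0.30 ± 0.054, FDR 1.1e-06. The order of medians ran Dox at 6 and 24 h, 5FU at 24 h, 5FU at 6 h with DMSO1 at 24 h, DMSO2 and Ace at 24 h, and DMSO2, Ace and DMSO1 at 6 h, each overlapping the next.

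Map1lc3b encodes LC3B, the ATG8 protein most used as an autophagosome marker, and it rose in 5FU and Dox at both times. At 6 h it was at 58.5, 65.6 and 77.5 CPM in DMSO1 and 80.7, 88.5 and 96.8 CPM in 5FU. For DMSO2 it was at 78.4, 80.5 and 87.01 CPM, for Ace at 76.3, 83.4 and 90.2 CPM and for Dox at 85.4, 91.9 and 106 CPM. The 5FU libraries lay above DMSO1, while Ace and Dox overlapped DMSO2. At 24 h the DMSO1 level was 88.7, 92.1 and 97.9 CPM and the 5FU level 117, 122 and 129 CPM. In DMSO2 it was 88.2, 95.5 and 100.1 CPM, in Ace 87.4, 91.3 and 101 CPM and in Dox 101, 104 and 123 CPM. At 24 h both 5FU and Dox lay above their controls without overlap.

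Map1lc3b rose in 5FU by 0.41 ± 0.053, FDR 1.58e-09 at 6 h and 0.41 ± 0.053, FDR 7.24e-10 at 24 h, in 6 of 6 and 6 of 6 libraries. Dox gave rises of 0.19 ± 0.049, FDR 0.000672 at 6 h and 0.18 ± 0.049, FDR 0.000876 at 24 h, in 7 of 7 and 7 of 7 libraries, and the 6 h call was lost with library size only (0.032, FDR 0.621). Ace was at 0.047 and -0.035, called at neither time (FDR 0.498 and 0.583). At 6 h Map1lc3b was lower in 1% than in 0.25% DMSO, at -0.28 ± 0.052, FDR 2.25e-05, with no overlap of the ranges, and the 5FU rise at 6 h is measured from that lower control. The controls rose from 6 to 24 h by 0.35 ± 0.036, FDR 5.09e-13. By median 5FU and Dox at 24 h came first and overlapped, and Dox did not meet the next group, DMSO2 at 24 h. DMSO1 at 24 h, Dox at 6 h, Ace at 24 h, and 5FU, Ace and DMSO2 at 6 h followed, overlapping in turn, and DMSO1 at 6 h stood below DMSO2 at 6 h with no overlap.

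A copy bears on Map1lc3b. RefSeq lists 3 pseudogenes of Map1lc3b and 1 of Sqstm1, and of these Map1lc3b2 had an entry in the count table. Its log2 fold change was 0.42 and 0.51 in 5FU and 0.245 and 0.34 in Dox at 6 and 24 h, all 4 called (FDR 3.69e-07, 1.52e-09, 0.00051 and 1.97e-06), and over the 10 group means its Pearson correlation with Map1lc3b was 0.97. Its level in DMSO1 at 6 h was 21.7, 24.1 and 27.4 CPM. How reads of the shared sequence were divided between Map1lc3b and its copy cannot be seen from the counts, so the values of the pair are not separate observations.

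Gabarapl1, an ATG8 protein of the GABARAP family, was higher in Dox at 6 h and lower at 24 h, with neither called under library size only. At 6 h its range was 48.3 to 64.3 CPM in DMSO1 (median 58.8) and 56.8 to 72.9 CPM in 5FU (median 62.6). The DMSO2 libraries were at 51.2, 53.6 and 56.4 CPM, Ace at 50.6, 54.9 and 56.2 CPM and Dox at 59.1, 65.8 and 68.6 CPM. Every Dox library at 6 h was above every DMSO2 library, and the other drugs overlapped their controls. At 24 h the range was 58.2 to 74.6 CPM in DMSO1 (median 63.4) and 69.5 to 71.97 CPM in 5FU (median 71.4). DMSO2 was at 58.4, 60.2 and 64.3 CPM, Ace at 59.9, 65.04 and 69 CPM and Dox at 39.3, 49.9 and 63.8 CPM. The 24 h Dox libraries were widely spread and overlapped the control, with 5 of 7 below its median.

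In Dox Gabarapl1 rose by 0.28 ± 0.063, FDR 9.45e-05 at 6 h, in 7 of 7 libraries, and fell at 24 h, at -0.22 ± 0.064, FDR 0.00123. The rise was not called with library size only (0.12, FDR 0.0875). The fall at 24 h rested on few libraries. It was not called without libraries 3, 6 and 7 of the 24 h Dox group (-0.17, -0.16 and -0.13, FDR 0.0165, 0.0202 and 0.0337), without the 3 libraries that stand apart (-0.16, FDR 0.0106), with library size only (-0.17, FDR 0.0151) or with the compared groups alone (-0.23, FDR 0.0229). In 5FU Gabarapl1 was at 0.14 and 0.14 and in Ace at 0.0021 and 0.089 at 6 and 24 h, called in none of them (FDR 0.083, 0.072, 0.984 and 0.248). The controls rose with time by 0.17 ± 0.047, FDR 0.000943. By median 5FU at 24 h stood above the next group, Dox at 6 h, with no overlap, though single libraries of other groups reached its range. Ace and DMSO1 at 24 h, 5FU at 6 h, DMSO2 at 24 h, DMSO1, Ace and DMSO2 at 6 h and Dox at 24 h followed, each overlapping the next.

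Sqstm1 encodes p62, a receptor that binds ubiquitinated cargo and LC3, and it rose in every drug at 24 h. At 6 h it was at 571, 597 and 667 CPM in DMSO1 and 512, 552 and 674 CPM in 5FU. In the groups with 0.25% DMSO it was at 554, 595 and 609 CPM in DMSO2, 638, 693 and 712 CPM in Ace and 567.5, 610 and 659 CPM in Dox. Ace lay above its control at 6 h, and 5FU and Dox overlapped theirs. At 24 h it was at 427, 467 and 618 CPM in DMSO1 and 711, 733 and 795 CPM in 5FU. The DMSO2 level was 407, 419 and 447 CPM, the Ace level 479.7, 549.5 and 603 CPM and the Dox level 454, 555 and 635 CPM. None of the 24 h drug libraries reached down to their control ranges, and the highest DMSO1 library, 618 CPM, was library 1, which stands apart.

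The rise of Sqstm1 at 24 h was 0.61 ± 0.065, FDR 2.38e-12 in 5FU, a fold of 1.52, in 6 of 6 libraries. It was 0.38 ± 0.06, FDR 3.77e-07 in Ace and 0.37 ± 0.06, FDR 1.08e-07 in Dox, in 7 of 7 and 7 of 7 libraries. At 6 h Ace rose by 0.22 ± 0.062, FDR 0.00277, in 6 of 6 libraries, a call lost with library size only (0.19, FDR 0.0119), and 5FU and Dox were at -0.087 and 0.071, not called (FDR 0.252 and 0.284). Time moved the controls the other way, at -0.39 ± 0.044, FDR 7.69e-12, so the 24 h drug groups were high against controls that had come down. The 5FU libraries were the exception, at 24 h above their own 6 h range. By median the order was 5FU at 24 h, Ace, Dox, DMSO1 and DMSO2 at 6 h, Dox at 24 h, 5FU at 6 h, Ace, DMSO1 and DMSO2 at 24 h, and each group overlapped the next.

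Tfeb, a transcription factor that drives genes of autophagy and the lysosome, rose in 5FU and fell in Ace and Dox, at both times. Its 6 h libraries were at 43.7, 46.5 and 51.1 CPM in DMSO1 and 52.1, 55.6 and 61.9 CPM in 5FU. Its DMSO2 libraries were at 45.7, 48.5 and 53.4 CPM, Ace at 38.3, 42.3 and 45.95 CPM and Dox at 27.7, 30 and 32.2 CPM. The 5FU libraries were all above and the Dox libraries all below their controls, and Ace touched the range of DMSO2. At 24 h it was at 33.6, 37.5 and 45.95 CPM in DMSO1 and 49.4, 51.5 and 54.7 CPM in 5FU. The remaining 24 h groups were at 36.8, 40.7 and 41.8 CPM in DMSO2, 32.1, 34.2 and 37.3 CPM in Ace and 24.9, 27.9 and 30.6 CPM in Dox. The same pattern held at 24 h, with 5FU above, Dox below and Ace overlapping its control at the lower end.

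In 5FU Tfeb rose by 0.28 ± 0.053, FDR 1.2e-05 at 6 h and 0.45 ± 0.054, FDR 1.17e-10 at 24 h, in 6 of 6 and 6 of 6 libraries. In Dox it fell at -0.71 ± 0.051, FDR 1.22e-19 at 6 h, a fold of 0.61, and -0.54 ± 0.051, FDR 7.68e-15 at 24 h, in 7 of 7 and 7 of 7 libraries. In Ace it fell at -0.24 ± 0.052, FDR 0.000132 and -0.23 ± 0.051, FDR 0.000149, in 6 of 6 and 7 of 7 libraries. From 6 to 24 h the controls fell, at -0.30 ± 0.037, FDR 9.1e-11. The order of medians ran 5FU at 6 and 24 h, DMSO2, DMSO1 and Ace at 6 h, DMSO2, DMSO1 and Ace at 24 h, and Dox at 6 and 24 h, each overlapping the next. The 24 h DMSO1 library that stands apart was its group's highest, at 46 CPM.

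**Figure D2:**
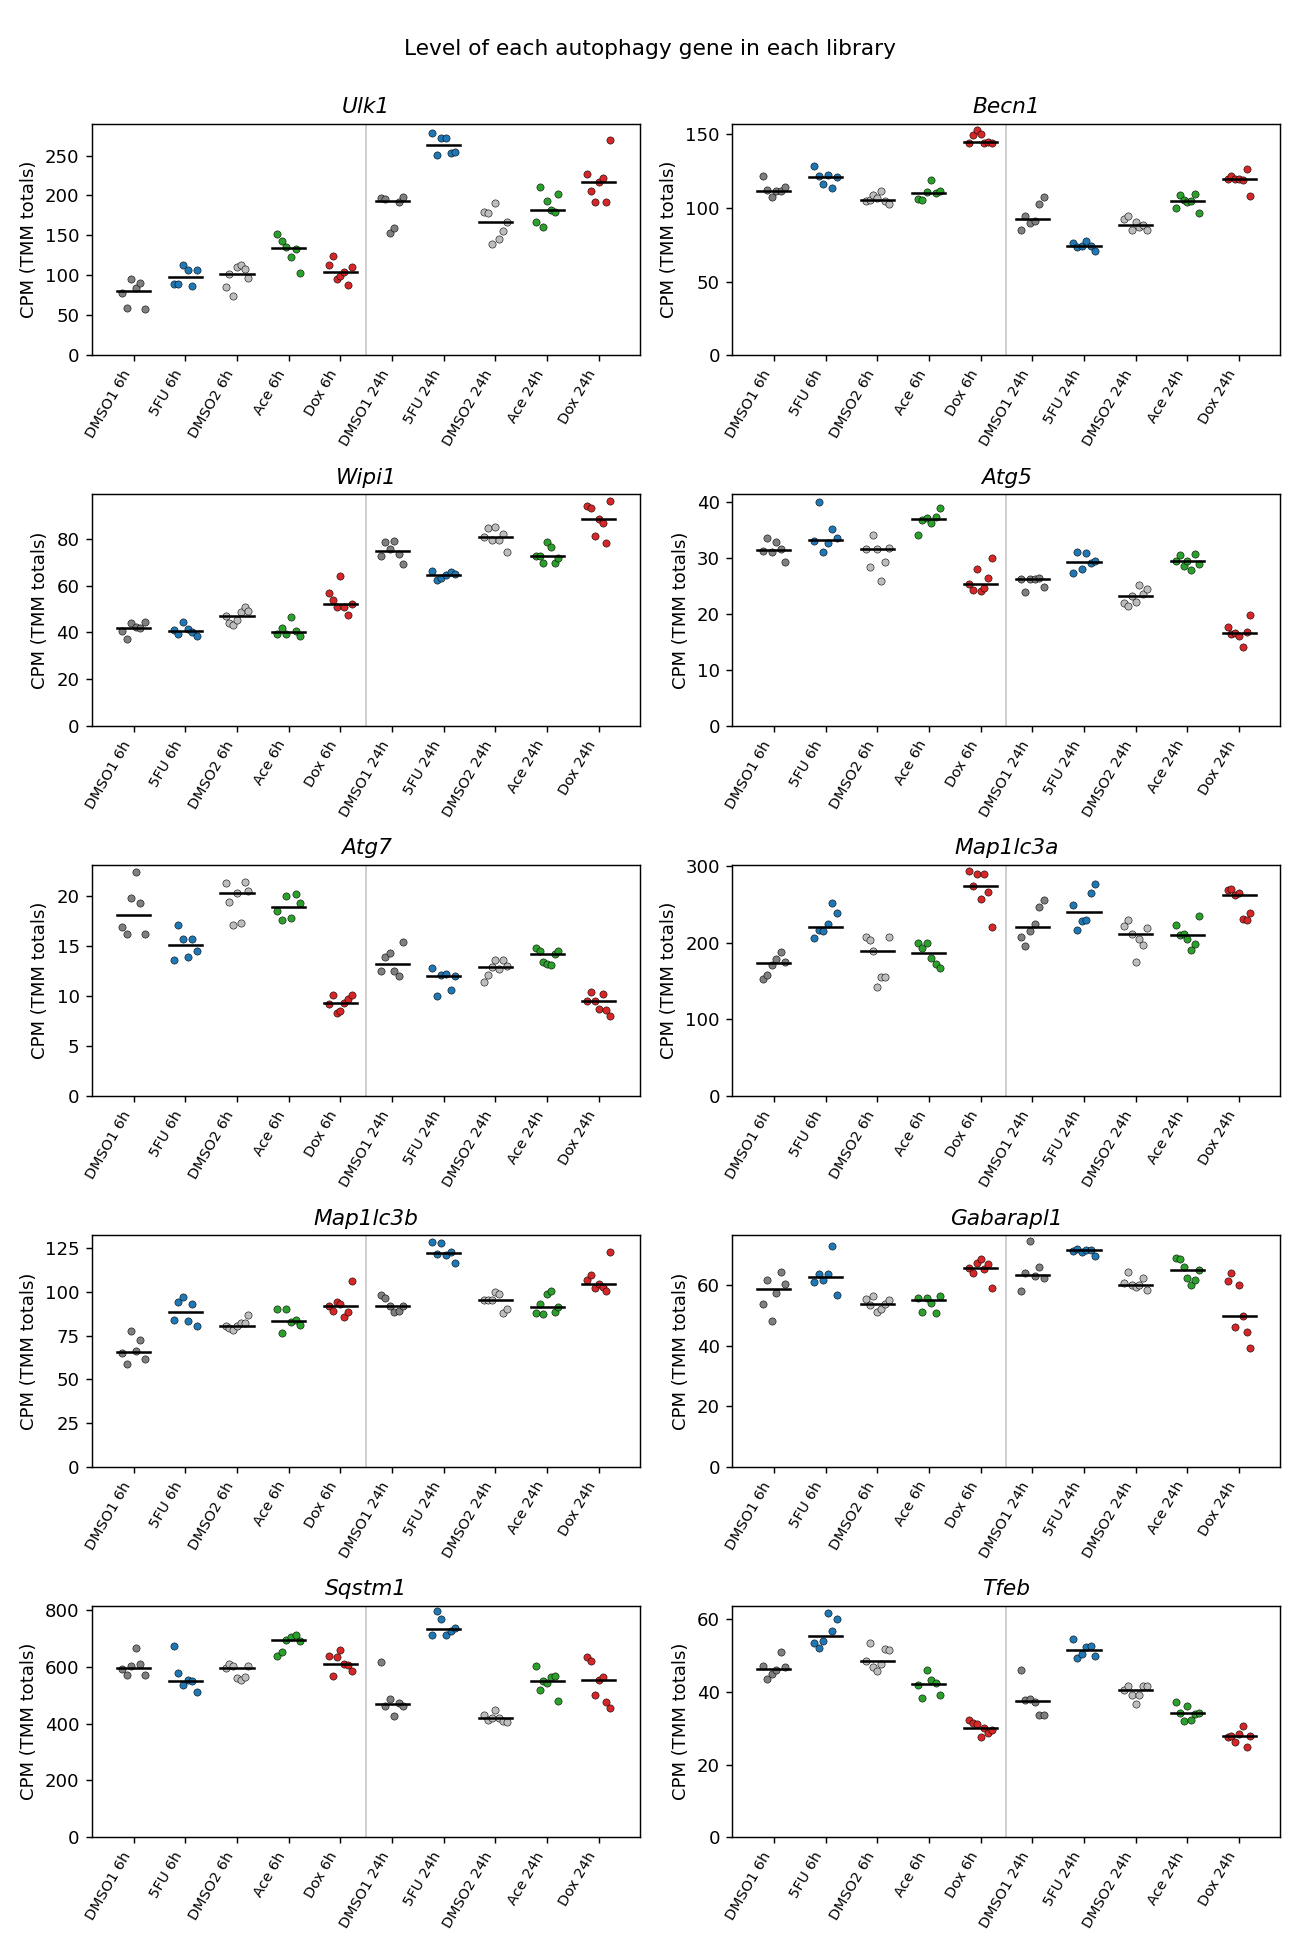
Level of each of the 10 members in CPM on TMM-scaled totals, 1 panel per gene, with 1 point per library in the 10 groups and a bar at each group's median. Tfeb medians ran from 27.9 CPM in Dox at 24 h to 55.6 CPM in 5FU at 6 h, and Ulk1 medians from 80.5 CPM in DMSO1 at 6 h to 263 CPM in 5FU at 24 h.

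Some drug effects differed between the times, tested as the 24 h effect minus the 6 h effect. For 5FU 2 members passed, with 39.5% of all genes called. Sqstm1 gained, at 0.69 ± 0.092, FDR 4.38e-09, and Becn1 lost, at -0.45 ± 0.058, FDR 2.42e-09. Tfeb was at 0.17 ± 0.076, FDR 0.0525, not called, and was called without the 3 libraries that stand apart (0.22, FDR 0.00865) or without library 1 of the 24 h DMSO1 group (0.24, FDR 0.00373). For Ace edgeR called 0 members, with 11.6% of all genes called, 1 member had an unadjusted p under 0.05, and DESeq2 called 0. That member was Becn1, at 0.17 ± 0.055, FDR 0.0173, and it was called without library 7 of the 24 h Ace group (0.19, FDR 0.00828) and library 4 of the 6 h Ace group (0.20, FDR 0.00798), and without the 3 libraries that stand apart (0.17, FDR 0.00687), and so the count went from 0 to 1, as it did with library size only (0.26, FDR 0.00203) and with the compared groups alone (0.17, FDR 0.00762). None of the 3 libraries that stand apart is an Ace or DMSO2 library, so here they act only through the model and scaling shared by all groups. With library size only the share of higher calls of all genes went from 47.9% to 77.1%.

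For Dox the difference between the times passed for 5 members, 2 higher and 3 lower, with 64.8% of all genes called. Atg7 was less reduced at 24 than at 6 h, by 0.62 ± 0.1, FDR 1.52e-07, and Sqstm1 gained 0.30 ± 0.085, FDR 0.00147. Gabarapl1 was lower at 24 than at 6 h relative to control, at -0.50 ± 0.09, FDR 1.56e-06, though neither its 6 h rise nor its 24 h fall was called with library size only (0.12, FDR 0.0875 and -0.17, FDR 0.0151), and the fall was not called without the 3 libraries that stand apart (-0.16, FDR 0.0106) or without libraries 3, 6 and 7 of the 24 h Dox group (-0.17, -0.16 and -0.13, FDR 0.0165, 0.0202 and 0.0337). Atg5 and Map1lc3a also had lower values at 24 h, at -0.25 ± 0.078, FDR 0.00437 and -0.31 ± 0.10, FDR 0.00632. The calls of Atg5 and Map1lc3a depended on single libraries, and the count went from 5 to 3 without library 5 or 6 of the 6 h DMSO2 group or library 3, 4 or 5 of the 24 h Dox group. Atg5 was not called without library 5 of the 24 h DMSO2 group (-0.22, FDR 0.0142), libraries 5 and 6 of the 6 h DMSO2 group (-0.21 and -0.21, FDR 0.0124 and 0.0173), libraries 2, 3, 4, 5 and 6 of the 24 h Dox group (-0.22, -0.22, -0.21, -0.21 and -0.22, FDR 0.0153, 0.0136, 0.017, 0.0149 and 0.013) and library 7 of the 6 h Dox group (-0.21, FDR 0.0125). Map1lc3a was not called without libraries 1, 2 and 7 of the 24 h DMSO2 group (-0.29, -0.28 and -0.30, FDR 0.0112, 0.0137 and 0.0107), libraries 4, 5 and 6 of the 6 h DMSO2 group (-0.26, -0.28 and -0.25, FDR 0.0187, 0.0153 and 0.0288), libraries 3, 4, 5, 6 and 7 of the 24 h Dox group (-0.29, -0.30, -0.29, -0.26 and -0.27, FDR 0.0121, 0.0112, 0.0131, 0.0233 and 0.0188) and libraries 1, 3 and 5 of the 6 h Dox group (-0.29, -0.29 and -0.29, FDR 0.0123, 0.0115 and 0.0113). Library size only moved the median of all genes by 0.20 here, took the share of higher calls from 52.5% to 64.8%, and ended the calls of Atg5 (-0.047, FDR 0.583) and Map1lc3a (-0.11, FDR 0.383), which were also lost after the filter of edgeR (-0.22, FDR 0.0105 and -0.28, FDR 0.0124) and with the compared groups alone (-0.25, FDR 0.0191 and -0.31, FDR 0.0174). That scaling put Gabarapl1 at -0.29 and Sqstm1 at 0.50, and it brought calls of Tfeb (0.38, FDR 1.74e-05), at 0.18 ± 0.072, FDR 0.0256 with TMM, and Ulk1 (0.51, FDR 0.00176), at 0.31 ± 0.13, FDR 0.0342 with TMM. The members thus went from 2 higher and 3 lower to 4 higher and 1 lower. Tfeb was also called without library 6 of the 24 h Dox group (0.22, FDR 0.00611).

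Dox and Ace libraries can be compared directly, since both were in 0.25% DMSO. At 6 h 4 members were higher and 4 lower in Dox than in Ace, with 62.1% of all genes called. Atg7 differed by -1.02 ± 0.072, FDR 9.57e-20, Atg5 by -0.49 ± 0.056, FDR 8.54e-12 and Tfeb by -0.47 ± 0.053, FDR 5.51e-12, and the Dox libraries of these genes lay below all Ace libraries. Map1lc3a was higher by 0.54 ± 0.076, FDR 5.11e-09, Becn1 by 0.41 ± 0.04, FDR 2.38e-14, Wipi1 by 0.39 ± 0.052, FDR 1.35e-09 and Gabarapl1 by 0.28 ± 0.066, FDR 0.000201, all with no overlap. Ulk1 was lower, at -0.33 ± 0.099, FDR 0.00249, and was not called without library 1 of the 6 h Ace group (-0.28, FDR 0.0125). Map1lc3b was at 0.14 ± 0.051, FDR 0.0135, not called, and was called in DESeq2 (0.17, FDR 0.00185), with DESeq2 size factors (0.17, FDR 0.00265) and without library 1 of the 6 h Ace group (0.16, FDR 0.00747) and library 5 of the 6 h Dox group (0.16, FDR 0.00796), but with library size only it was 0.016 (FDR 0.818). Sqstm1 was at -0.15 ± 0.062, FDR 0.0278, called with the compared groups alone (-0.15, FDR 0.00759), with library size only (-0.27, FDR 0.000129) and without the 3 libraries that stand apart (-0.15, FDR 0.00473), but not with DESeq2 size factors (-0.12, FDR 0.0952). Library size only moved the median of all genes by -0.12, took the share of higher calls from 49.4% to 36.7%, and ended the call of Gabarapl1 (0.15, FDR 0.0442), so that 3 members were higher and 5 lower.

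At 24 h 4 members were higher and 4 lower in Dox than in Ace, with 80.6% of all genes called. Atg5 showed the widest gap, -0.81 ± 0.056, FDR 7.28e-21, followed by Atg7, -0.59 ± 0.071, FDR 2.31e-11, with Dox below Ace in every library. Gabarapl1 was lower at -0.31 ± 0.064, FDR 1.13e-05 in 7 of 7 libraries and Tfeb at -0.31 ± 0.052, FDR 1.83e-07 in 7 of 7. Wipi1 was higher by 0.27 ± 0.048, FDR 6.83e-07, Map1lc3a by 0.26 ± 0.073, FDR 0.000779, Map1lc3b by 0.21 ± 0.049, FDR 8.53e-05 and Becn1 by 0.19 ± 0.038, FDR 4.99e-06, in 7 of 7, 7 of 7, 7 of 7 and 7 of 7 libraries. Sqstm1 was at -0.0060 ± 0.06, FDR 0.928, with a 95% interval from -0.12 to 0.11, and its sign depended on the processing. Ulk1 was at 0.24 ± 0.094, FDR 0.0176, not called, with 7 of 7 Dox libraries above the Ace median. It was called in DESeq2 (0.28, FDR 0.00357), with DESeq2 size factors (0.28, FDR 0.00455), after the filter of edgeR (0.26, FDR 0.00966) and without library 2 of the 24 h Ace group (0.29, FDR 0.00532) and libraries 2, 3 and 6 of the 24 h Dox group (0.27, 0.29 and 0.29, FDR 0.00958, 0.00582 and 0.00592), but without the 3 libraries that stand apart it was 0.18 (FDR 0.0806).

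The Dox and 5FU effects, each against its own control, were compared by the difference of the log2 fold changes. At 6 h 2 members had the higher effect in Dox and 4 the lower, with 45.9% of all genes called. Tfeb differed most, by -0.99 ± 0.074, FDR 2.72e-18, then Atg7, by -0.78 ± 0.10, FDR 7.77e-10, and Atg5, by -0.33 ± 0.079, FDR 0.000242. Becn1 was higher by 0.37 ± 0.056, FDR 3.99e-08, Wipi1 by 0.23 ± 0.073, FDR 0.00598, and Map1lc3b was lower at -0.22 ± 0.073, FDR 0.00738. Median levels of Map1lc3b at 6 h were 88.55 CPM in 5FU and 91.9 CPM in Dox, and 65.59 CPM in DMSO1 and 80.48 CPM in DMSO2. Its difference between the effects thus includes the difference between the controls, and the part of each was not tested. The difference in Wipi1 was not called without library 6 of the 6 h 5FU group (0.21, FDR 0.0133), libraries 3 and 6 of the 6 h DMSO1 group (0.21 and 0.22, FDR 0.0127 and 0.0123), libraries 1, 2, 3 and 4 of the 6 h DMSO2 group (0.21, 0.22, 0.21 and 0.22, FDR 0.0138, 0.0115, 0.0129 and 0.01) and library 4 of the 6 h Dox group (0.19, FDR 0.018), with library size only (0.15, FDR 0.11) or with the compared groups alone (0.24, FDR 0.0179). That in Map1lc3b was not called without libraries 2, 3 and 5 of the 6 h 5FU group (-0.20, -0.20 and -0.20, FDR 0.0201, 0.0209 and 0.0185), libraries 1, 2, 4 and 6 of the 6 h DMSO1 group (-0.21, -0.18, -0.22 and -0.19, FDR 0.0148, 0.0288, 0.011 and 0.0224), libraries 5, 6 and 7 of the 6 h DMSO2 group (-0.22, -0.22 and -0.21, FDR 0.01, 0.0101 and 0.0149) and libraries 1, 2, 5 and 6 of the 6 h Dox group (-0.22, -0.21, -0.20 and -0.21, FDR 0.0116, 0.0147, 0.0185 and 0.016), in DESeq2 (-0.20, FDR 0.0154) or with the compared groups alone (-0.21, FDR 0.041). Sqstm1 was at 0.16 ± 0.088, FDR 0.124 and was called without the 3 libraries that stand apart (0.22, FDR 0.007), but with library size only it was 0.084 (FDR 0.447).

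At 24 h 2 members had the higher effect in Dox and 4 the lower, with 71.1% of all genes called. Tfeb again differed most, by -0.99 ± 0.075, FDR 1.02e-18, and Becn1 differed by 0.78 ± 0.056, FDR 1.13e-19, as it rose in Dox and fell in 5FU. Atg5 differed by -0.66 ± 0.082, FDR 1.05e-10, Gabarapl1 by -0.36 ± 0.093, FDR 0.000469 and Wipi1 by 0.34 ± 0.071, FDR 1.8e-05. Map1lc3b differed by -0.23 ± 0.072, FDR 0.00283, a call lost without library 6 of the 24 h Dox group (-0.21, FDR 0.0106), in DESeq2 (-0.19, FDR 0.0124) and with library size only (-0.18, FDR 0.0383). Sqstm1 was at -0.24 ± 0.088, FDR 0.0132, and was called without the 3 libraries that stand apart (-0.27, FDR 0.000773) or without library 1 of the 24 h DMSO1 group (-0.32, FDR 0.000434) and libraries 1 and 2 of the 24 h Dox group (-0.27 and -0.26, FDR 0.00407 and 0.00734), but with library size only it was -0.18 (FDR 0.0596).

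Patterns across the 10 group means were also compared by Pearson correlation of log2 CPM, as a description over 10 points that share libraries and time. Among the members the closest pair was Ulk1 and Map1lc3b, at 0.88, then Ulk1 and Wipi1, at 0.80, and Map1lc3a and Map1lc3b, at 0.77. Atg5 and Atg7 were at 0.75 and Atg5 and Tfeb at 0.71. The most opposed pairs were Atg7 and Map1lc3a, at -0.94, and Wipi1 and Atg5, at -0.82. Among 12460 genes with a symbol and a mean of at least 1 CPM, those most like each member included Rnf114 (0.98) for Ulk1, Hgh1 (0.95) and Rps15a-ps9 (0.95) for Becn1, and Lrig1 (0.99) and Abca1 (0.99) for Wipi1. Lpcat1 (0.98) and Pla2g12a (0.98) were most like Atg5, Ttll12 (0.98) and Coa7 (0.96) most like Atg7, and Grcc10 (0.95) and Glod4 (0.94) most like Map1lc3a. For Map1lc3b they were its copy Map1lc3b2 (0.97) and Med25 (0.95), for Gabarapl1 Glmp (0.96) and Ap2b1 (0.96), for Sqstm1 Snrnp27 (0.94) and Adrm1 (0.91), and for Tfeb Hnrnpdl (0.96) and Smad9 (0.95).

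Genes that overlap a member in the RefSeq annotation were looked up, as reads of a shared stretch may be counted for either. Becn1 overlaps Cntd1, whose level was under 1 CPM on average. Wipi1 overlaps Arsg, at -0.32 in Dox at 6 h (FDR 2.64e-06), 0.32 in Dox at 24 h (FDR 9.75e-07) and 0.70 from 6 to 24 h in the controls (FDR 1.34e-22). Atg7 and Tfeb each overlap a long noncoding RNA that had no entry in the table.

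The wider pathway was described by a list of 72 autophagy genes that includes the 10 members, of which 67 had an entry (Nrbf2, Atg4a, Gabarapl2, Prkag1 and Fnip1 had none). In 5FU 23 of 67 rose and 15 fell at 6 h, and 28 rose and 15 fell at 24 h. In Ace 21 rose and 5 fell at 6 h, and 14 rose and 4 fell at 24 h. In Dox 24 rose and 22 fell at 6 h, and 31 rose and 27 fell at 24 h. The called shares of the list were 56.7%, 38.8% and 68.7% at 6 h and 64.2%, 26.9% and 86.6% at 24 h in 5FU, Ace and Dox. Over all genes they were 47.9%, 31.7% and 64.2% and then 55.8%, 37.2% and 81.4%. Median log2 fold changes of the list were 0.093, 0.099 and 0.064 at 6 h and 0.16, 0.080 and 0.13 at 24 h. The list in Dox at 6 h gave, with library size only, 14 up and 29 down. Its median was then -0.089 and that of all genes -0.15, against 0.064 and 0.003 with TMM. In 5FU at 6 h library size only gave 16 up and 16 down, with a median of 0.021 where all genes had -0.0745. In Ace at 24 h it gave 20 up and 3 down, with a median of 0.14 where all genes had 0.056. Between the controls at 6 h 7 list genes were higher and 3 lower in 1% than in 0.25% DMSO, 14.9% of the list against 16.5% of all genes. With library size only, which moved the median of all genes by -0.083, 2 were higher and 6 lower. The medians of the list and of all genes were -0.0071 and 0.0082 with TMM, and -0.092 and -0.075 with library size only. From 6 to 24 h the controls had 33 up and 18 down, 76.1% of the list against 64.6% of all genes.

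By role, the ATG8 proteins all rose in Dox at 6 h, 4 of 4, where 31.5% of all genes rose, with Map1lc3b and Gabarapl1 not called with library size only, and at 24 h 2 were up and 2 down. Of the latter Gabarapl1 was not called without library 3, 6 or 7 of the 24 h Dox group (FDR 0.0165, 0.0202 and 0.0337), without the 3 libraries that stand apart, with library size only or with the compared groups alone. Gabarap, the ATG8 protein closest to Gabarapl1, was at 0.40 ± 0.056, FDR 3.77e-09 at 6 h and -0.17 ± 0.056, FDR 0.00444 at 24 h in Dox, and in 5FU at 0.37 ± 0.061, FDR 4.39e-07 and 0.38 ± 0.061, FDR 1.68e-07. In Ace it was at 0.0048 at 6 h and -0.0091 at 24 h, not called (FDR 0.959 and 0.91). In Dox at 24 h, where 40.4% of all genes were called higher and 41% lower, 6 of 10 conjugation genes fell and 3 rose, and 5 rose in Ace at 6 h, Atg5 among them, against 16.5% of all genes. Of the 5 genes of the ULK complex 4 rose in Dox and 4 in 5FU at 24 h, where 28% of all genes were higher in 5FU. Ulk2, the paralog of Ulk1, rose in Dox by 1.08 ± 0.06, FDR 1.17e-24 at 6 h and 1.36 ± 0.059, FDR 6.84e-31 at 24 h, and in 5FU at 24 h it fell, at -0.45 ± 0.065, FDR 1.68e-08, where Ulk1 rose.

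Wipi2, the paralog of Wipi1, rose in Dox at 24 h by 0.93 ± 0.044, FDR 2.85e-29 and in 5FU by 0.23 ± 0.047, FDR 2.73e-05 and 0.36 ± 0.048, FDR 1.17e-09. Among the 6 transcription regulators 4 fell and 2 rose in Dox at 6 h, where 64.2% of all genes were called. Mitf, a relative of Tfeb, was the list gene that fell most in Dox, at -2.22 ± 0.066, FDR 3.27e-38 at 6 h and -1.99 ± 0.063, FDR 3.31e-38 at 24 h, and it fell in 5FU at 6 h, at -0.63 ± 0.065, FDR 9.81e-13, where Tfeb rose. Tfe3, the other close relative, fell in Dox at 6 h, at -0.62 ± 0.066, FDR 6.27e-13, and was at 0.16 ± 0.065, FDR 0.0168 at 24 h, not called. Of 7 cargo receptors 4 rose and 1 fell in 5FU at 24 h, Sqstm1 among those that rose, where 55.8% of all genes were called. Of 9 fusion genes 6 rose and 3 fell in Dox at 24 h, and of 11 genes of kinase control 4 rose and 6 fell, where 81.4% of all genes were called, 40.4% higher and 41% lower.

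The list genes besides the members that moved most in each comparison fell in different roles. In 5FU at 6 h Foxo1, a transcription factor, rose by 1.08 ± 0.12, FDR 2.56e-11 and Prkaa2, a catalytic subunit of AMPK, fell at -1.09 ± 0.075, FDR 1.17e-19. At 24 h in 5FU Foxo3 rose by 0.62 ± 0.075, FDR 1.12e-10 and Tsc2, an inhibitor of mTORC1 signalling, fell at -0.63 ± 0.067, FDR 1.39e-12. In Ace Ulk2 rose most at 6 h, by 0.52 ± 0.062, FDR 2.88e-10, and Atg12 most at 24 h, by 0.35 ± 0.066, FDR 8.65e-06, while Rubcn, an inhibitor of the Beclin 1 complex, fell most at both, at -0.40 ± 0.092, FDR 0.000255 and -0.47 ± 0.088, FDR 7.84e-06. In Dox Ulk2 rose most at 6 h and Plekhm1, an adaptor for fusion with the lysosome, rose most at 24 h, by 1.37 ± 0.082, FDR 5.77e-24.

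**Figure D3:**
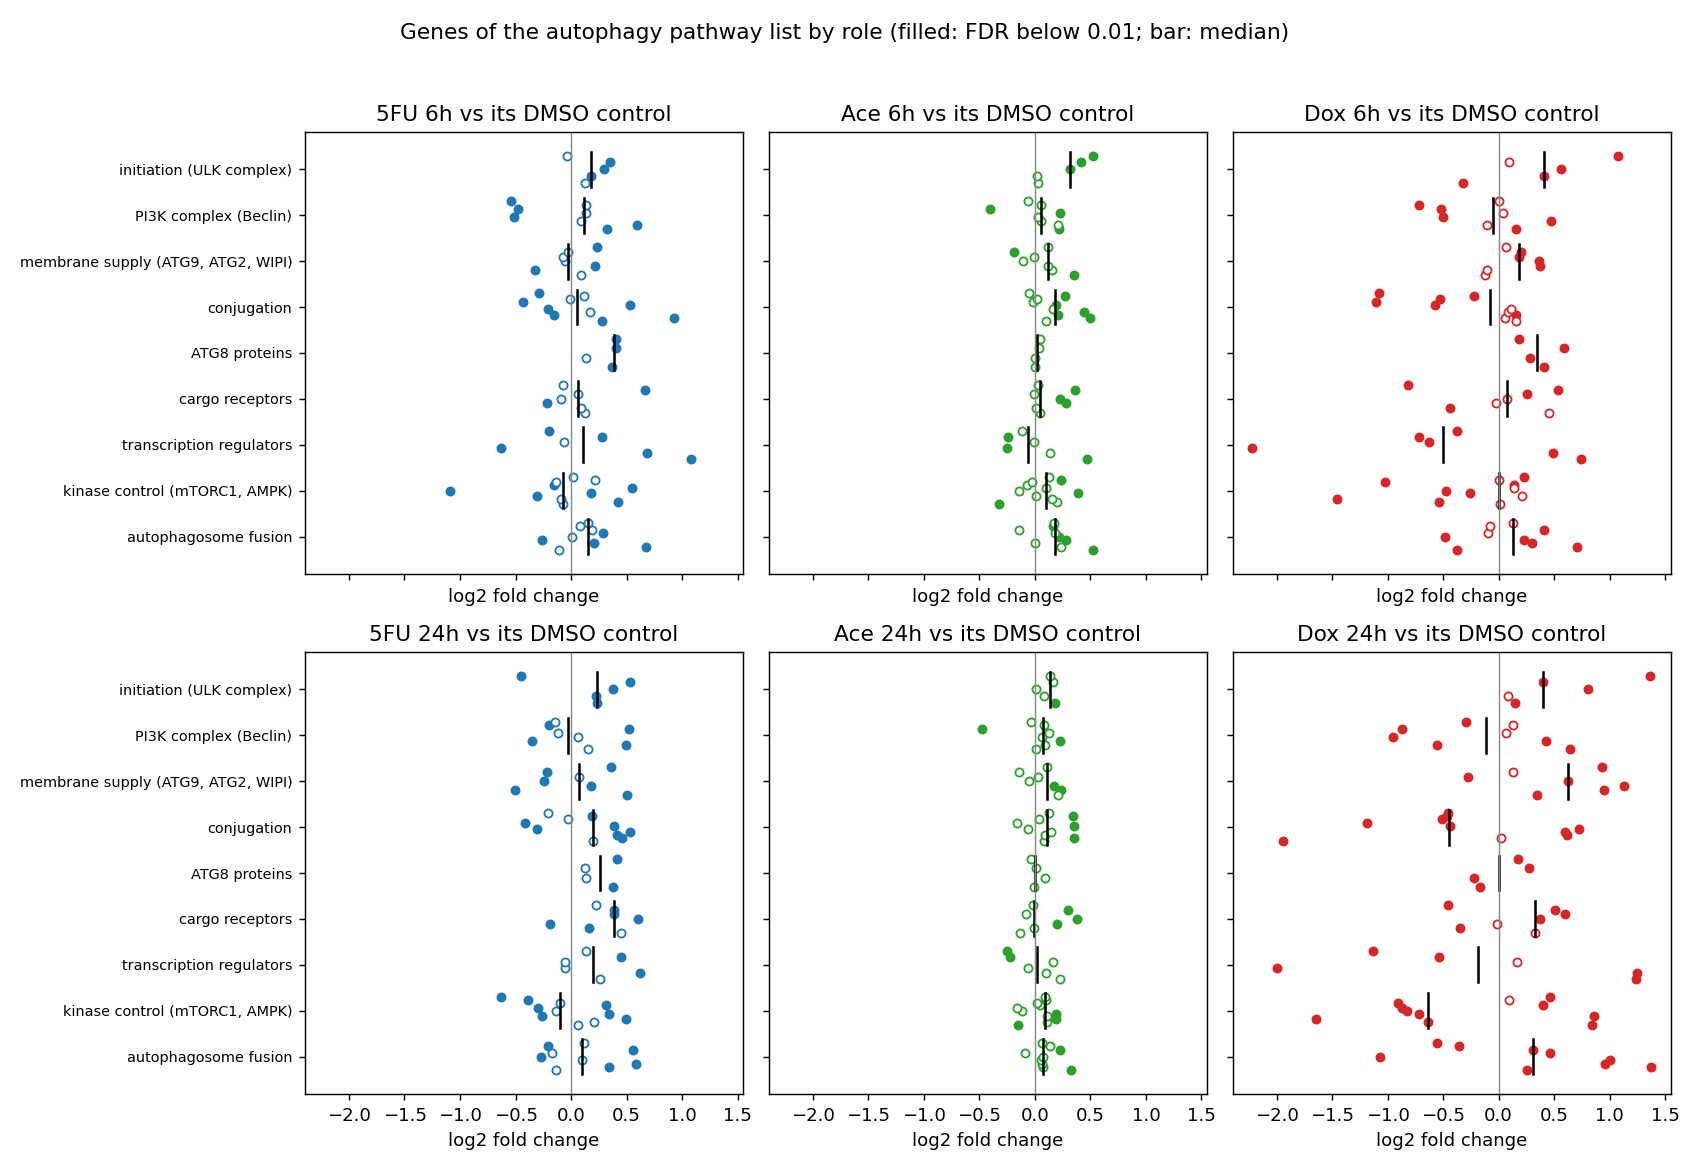
Log2 fold change of the 67 pathway genes, grouped by role, in the comparisons of each drug with its DMSO control, with 1 point per gene and a bar at the median of the role. Mitf was at -1.99 and Plekhm1 at 1.37 in Dox at 24 h.

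Promoters of 8 of the 10 members, from 250 bases before to 50 after the gene start, were in the RefSeq table of build GRCr8, and Becn1 and Map1lc3a had no entry. They were searched on both strands for CACGTG, the core of the E-box, and for TCACGTGA, a longer form in the element that TFEB binds, which contains the shorter letters. CACGTG was in 1 of 8 member promoters (12.5%), in 8 of 68 promoters of the pathway list (11.8%), in 1110 of 12818 promoters of genes in the count table (8.66%) and in 2148 of 33469 promoters in all (6.42%). TCACGTGA was in 0 of 8, in 3 of 68 (4.41%), in 190 of 12818 (1.48%) and in 260 of 33469 (0.777%). A match is a description of the letters and no match says only that they are not in this window. The windows were placed by the annotated gene start, and whether transcription starts there in these cells was not tested, for Atg7 as for the others. The member with CACGTG was Atg5, where its first base is at -19 from the gene start. Shown are the promoters of Atg5 (chr20:49380585-49380884, + strand), Atg7 (chr4:149419400-149419699, + strand) and Tfeb (chr9:20703075-20703374, - strand), the members that fell in Dox at both times, 5′ to 3′ in lower case with CACGTG in capitals.
Atg5: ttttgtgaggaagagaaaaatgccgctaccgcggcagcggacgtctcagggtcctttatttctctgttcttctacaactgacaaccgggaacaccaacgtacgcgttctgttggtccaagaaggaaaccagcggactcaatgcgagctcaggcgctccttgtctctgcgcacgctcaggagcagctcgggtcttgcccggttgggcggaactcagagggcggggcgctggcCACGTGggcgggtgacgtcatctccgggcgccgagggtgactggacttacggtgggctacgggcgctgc
Atg7: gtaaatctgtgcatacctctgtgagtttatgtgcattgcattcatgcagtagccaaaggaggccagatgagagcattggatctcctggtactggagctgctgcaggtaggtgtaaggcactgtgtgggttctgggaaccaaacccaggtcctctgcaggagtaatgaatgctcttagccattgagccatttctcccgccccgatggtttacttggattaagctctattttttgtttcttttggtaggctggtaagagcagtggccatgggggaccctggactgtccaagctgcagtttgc
Tfeb: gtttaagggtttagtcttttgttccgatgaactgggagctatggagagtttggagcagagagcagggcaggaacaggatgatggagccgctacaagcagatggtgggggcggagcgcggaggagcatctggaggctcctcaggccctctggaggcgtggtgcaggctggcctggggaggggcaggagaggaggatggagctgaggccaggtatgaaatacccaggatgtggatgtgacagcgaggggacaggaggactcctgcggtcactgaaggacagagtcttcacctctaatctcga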

How the data were processed

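The deposited values are estimated counts per gene, which the authors made from polyA reads with kallisto 0.46.0 on an Ensembl rat transcriptome and tximport, removing genes with counts under 10. Whether tximport scaled them for length, and the strand of the libraries, is not given in the sources used here. All values were whole numbers (100%), so rounding changed nothing, and no further gene was removed. The 65 libraries, in 10 groups by the labels, held 14332827 to 25738297 counts. R 4.3.3 with edgeR 4.0.16 (limma 3.58.1) fitted 1 quasi-likelihood model of all groups on TMM-scaled totals, and 16 comparisons were tested, each adjusted over 14554 genes by Benjamini and Hochberg at an FDR of 0.01. The standard error is the log2 fold change divided by the square root of its F. Levels are not per length, as no transcript lengths were at hand. The members were taken by rat symbol. Members, pathway list and marker lists were chosen with earlier results of these data known. Alternatives were DESeq2 1.42.0 (size factors and its own Wald test), library size only, edgeR's filter, no filter, the compared groups alone, an FDR of 0.1, a log2 fold change of at least 0.5, and each library left out. Leaving out together the 3 libraries that stand apart was added after seeing the data. The script was tested on simulated data. Motifs were searched with Python 3.11.15 and pandas 2.3.3, and figures drawn with matplotlib 3.10.9.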

Additional observations from a re-analysis of the deposited data

Results flagged for a closer look

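In 5 of 100 gene and group pairs tested, 1 library lay far from the others of its group, and chance picks about 1 in 20 groups. Becn1 was at 108 CPM in library 7 of the 24 h Dox group, with the nearest other library at 119 CPM. Map1lc3b was at 106 CPM in library 7 of the 6 h Dox group (nearest 94.2) and at 123 CPM in library 7 of the 24 h Dox group (nearest 110). In library 1 of the 24 h DMSO1 group Sqstm1 was at 618 CPM (nearest 486) and Tfeb at 46 CPM (nearest 38.2). Of these 5 values, 4 are in libraries that stand apart from their group over all genes.

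For 7 pairs of gene and drug the drug effect differed between 24 and 6 h, by a test of the difference itself. These were 2 of 10 members in 5FU, 0 in Ace and 5 in Dox, where 39.5%, 11.6% and 64.8% of all genes were called. The difference is given as log2 at 24 h minus 6 h. In 5FU it was -0.45 for Becn1 and 0.69 for Sqstm1. In Dox it was -0.25 for Atg5, 0.62 for Atg7, -0.31 for Map1lc3a, -0.5 for Gabarapl1 and 0.3 for Sqstm1. The Atg5 and Map1lc3a differences were not called with library size only (-0.047, FDR 0.583 and -0.11, FDR 0.383), with edgeR's filter, with the compared groups alone, or in 9 and 14 of the fits with 1 library left out.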

How the results depend on the processing

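Of 85 calls over the 16 comparisons, 75 were called whichever library was left out, and no call changed direction under any alternative. Besides the log2 threshold and the fits with 1 library left out, 1181 of 1280 tests kept their direction and their side of the threshold. Another 48 passed it, 26 no longer did and 25, none called, changed sign, and the cause was not tested. Part of the 1181 was fixed in advance. The setting without a filter repeats the main fit, which also removed no gene, and an FDR of 0.1 cannot end a call. The log2 threshold of 0.5 ended 65 of the 85 calls and kept 20, by its construction. With library size only 9 of the 100 median levels moved by more than the SD between libraries of the group, to 30.54 CPM (Atg5, Ace 24 h), 112.5, 111.2 and 137.1 CPM (Becn1 in 5FU, DMSO2 and Dox at 6 h), 72.4, 56.3 and 62.18 CPM (Gabarapl1 in 5FU at 24 h and DMSO2 and Dox at 6 h), 84.08 CPM (Map1lc3b, DMSO2 6 h) and 37.38 CPM (Wipi1, 5FU 6 h). The counts of members called became 1 in the Ace effect at 24 h minus 6 h and 5 in Dox at 6 h. For the pathway list that setting gave 0 lower and 3 higher in the Ace effect at 24 h minus 6 h, 6 lower and 2 higher between the controls at 6 h, 9 lower in the Dox effect at 24 h minus 6 h, 14 higher in Dox at 6 h and 12 higher in Dox against Ace at 6 h. A change of scaling moves all genes of a library alike. A log2 fold change of at least 0.5 left 0 members in 5FU, 0 in Ace and 3 in Dox at 6 h, 2 in 5FU, 0 in Ace and 1 in Dox at 24 h, 0 between the controls at 6 h and 3 with time, 1 in each of the 5FU and Dox effects at 24 h minus 6 h, 2 in Dox against Ace at 6 h and 2 at 24 h, and 2 and 3 in Dox against the 5FU effect at 6 and 24 h. An FDR of 0.1 gave 8 members in 5FU at 6 h, 5 and 1 in the 5FU and Ace effects at 24 h minus 6 h and 1 between the controls at 24 h. The shares of all genes given above are for an FDR of 0.01 alone. They cannot be set beside these counts or those at the log2 threshold. The compared groups alone gave 3 in 5FU at 6 h, 1 in the Ace effect, 1 between the controls at 6 h and 3 in the Dox effect, edgeR's filter gave 3 in the Dox effect, and without the 3 libraries that stand apart 1 was called in the Ace effect. With library size only the sign changed for Atg5 (-0.0258) and Sqstm1 (-0.0389) between the controls at 6 h, Gabarapl1 in Ace at 6 h (-0.0286), Sqstm1 (-0.0828) and Ulk1 (-0.0644) in Dox at 6 h, Map1lc3b in Ace (0.0221) and between the controls (0.0125) at 24 h, Map1lc3a (0.0577) and Map1lc3b (0.0063) in the Ace effect, and Becn1 (0.1586), Map1lc3b (0.1896) and Wipi1 (0.1277) in the Dox effect at 24 h minus 6 h. The Gabarapl1 log2 fold change in the 5FU effect went to -0.0125 with the compared groups alone, -0.0085 with DESeq2 size factors, -0.0085 in DESeq2 and -0.0412 without the libraries that stand apart, and the Map1lc3b log2 fold change in the 5FU effect to -0.0128, -0.0082, -0.0081 and -0.0008. The Map1lc3b log2 fold change in the Dox effect was 0.0117 with edgeR's filter, and the Sqstm1 log2 fold change in Dox against Ace at 24 h was 0.0409 with DESeq2 size factors, 0.0408 in DESeq2, 0.0162 with edgeR's filter and 0.0314 without the libraries that stand apart. Leaving out 1 library gave -0.0321 to 0.048 for Gabarapl1 and -0.0448 to 0.0332 for Map1lc3b in the 5FU effect, -0.0098 to 0.0196 for Gabarapl1 and -0.0093 to 0.0884 for Map1lc3a in Ace at 6 h, -0.0253 to 0.0386 for Map1lc3a in Ace at 24 h, -0.0764 to 0.0225 for Map1lc3a and -0.0176 to 0.0298 for Tfeb in the Ace effect, -0.0298 to 0.0258 for Map1lc3b in the Dox effect and -0.0491 to 0.0528 for Sqstm1 in Dox against Ace at 24 h. The counts of members ran from 0 to 1 in the Ace effect, 1 to 3 between the controls at 6 h and 3 to 5 in the Dox effect. No paired analysis was possible because the columns carry no replicate numbers shared between groups. The lowest member count in a library, 144 for Atg7, sets the depth limit on single-library values.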
